A study of Homo sapiens with 16 samples.

Results

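The urokinase system and tissue factor were described through 6 genes: PLAU, PLAUR, PLAT, SERPINE2, F3 and TFPI. They were chosen by gene name, and all 6 had a row among the 14857 genes of the deposited expression table. The table came from 16 RNA-seq libraries of MDA-MB-231, an established human triple-negative breast cancer line. The cells held a tetracycline-regulated (tet-off) system, and 4 clones had 4 libraries each. Clones TTP_E11 and TTP_H3 re-expressed tristetraprolin (TTP), the RNA-binding protein encoded by ZFP36, and clones EV_A and EV_B carried an empty vector. Per the labels, every clone was kept under G418 and hygromycin B. A washout of at least 24 h is recorded for all 16 libraries, those of the EV clones included. Cells with TTP had doxycycline at 2 µg/mL before it, which is not recorded for the EV clones. Doxycycline maintenance, clone and TTP therefore cannot be told apart as sources of a difference between the arms. Each arm was only 2 clones, and the libraries of a clone are replicate cultures of that clone, so p-values measure the spread between cultures and not between clones.

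Urokinase (PLAU) is a secreted serine protease that cuts plasminogen into plasmin, which digests fibrin and activates other matrix proteases. Its receptor (PLAUR, uPAR) is held in the membrane by a lipid anchor and keeps the protease at the cell surface. Tissue-type activator (PLAT) makes the same cut, mainly on fibrin, and protease nexin-1 (SERPINE2) is a serpin that inhibits urokinase, plasmin and thrombin. Tissue factor (F3) is the membrane receptor for clotting factor VII that starts coagulation, and TFPI inhibits the complex of tissue factor with activated factor VII. The urokinase receptor and tissue factor are known for high levels in invasive breast cancer cells. TTP is known to bind AU-rich elements in the 3′ untranslated region (UTR) of an mRNA and to promote its decay.

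The AU-rich letters of these mRNAs are shown first because TTP is known for binding such letters. The 3′ UTR of the principal transcript of each gene was searched on its own strand for the heptamer TATTTAT and the nonamer TTATTTATT, which contains it, in GENCODE 29 on GRCh38. The heptamer stood 2 times in PLAU, 1 time in PLAUR, 2 times in PLAT, 2 times in F3 and 3 times in TFPI, and 0 times in SERPINE2. Each line below gives 30 bases of the mRNA strand, 5′ to 3′, with the heptamer in capitals, and the sites of PLAT are not shown.
PLAU, chr10:73917418-73917447, plus strand: aTATTTATatttcactattttTATTTATat
PLAUR, chr19:43648600-43648629, minus strand: aatattcatatTATTTATtttatacttaca
F3, chr1:94529383-94529412, minus strand: tggggattttcTATTTATgtaggtaatatt
F3, chr1:94529268-94529297, minus strand: cttccatttatTATTTATgtacaatttggt
TFPI, chr2:187466448-187466477, minus strand: atccaattttgTATTTATagtattctattg
TFPI, chr2:187466155-187466184, minus strand: cgagagggaatTATTTATatgtacttctta
TFPI, chr2:187464647-187464676, minus strand: ctgttgccattTATTTATagatagcaatag

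Of these UTRs, that of PLAUR was the one with the nonamer, although it was the shortest at 310 bases. Among 486 genes with a UTR within 10% of that length, 11.7% held the heptamer and 2.06% the nonamer. The UTR of PLAU had 932 bases, and 23.6% of genes of similar UTR length held the heptamer. The share was 21.95% around the 760 bases of PLAT, 21.99% around the 755 bases of SERPINE2 and 29.1% around the 1235 bases of F3. TFPI had the longest UTR, at 2675 bases, and the most copies of the shorter motif ATTTA, 17 against 6 in F3. Around its length 55.7% of genes held the heptamer and 0.94% held at least as many copies of ATTTA. Over the 12484 listed genes with an annotated 3′ UTR, 32.7% held the heptamer and 8.54% the nonamer. A match is a run of letters and not a measured binding site. Of the genes with the heptamer, PLAU, PLAUR and F3 were lower in the TTP clones and TFPI was higher (below). PLAT, which also has it, differed between the TTP clones, and SERPINE2, without it, was higher. Whether the motif had a part in these changes was not tested.

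The ZFP36 mRNA was checked in each library because the titles of 7 of the 8 libraries named TTP call them EV, while the library names used here give TTP. ZFP36 stood at 10160 to 15041 normalized counts in the TTP libraries and at 213 to 282 in the EV libraries, so the level in each library was the one its library name gives. Values are normalized counts, that is, reads scaled by a size factor for the library. Libraries held 14380767 to 22066098 reads on the listed genes, and each of the 6 genes had between 437 and 7228 reads in every library, so none was near the detection limit. Of 12 genes listed to mark MDA-MB-231, by a high or by a low level, 8 were measured. Their summed level was 96193 to 101415 in TTP and 122180 to 125578 in EV libraries. The 12 include ESR1, PGR and ERBB2, low levels of which define a triple-negative line, so the sum is no measure of identity. The sum mixes directions, by the test described below. VIM, CD44, AXL, CAV1 and EPCAM were lower in TTP versus EV. EGFR (0.18) and ERBB2 (0.31) were higher on the log2 scale, and MSN (0.03) did not pass the threshold. CDH1, ESR1, PGR and LCN2 were not analysed here. Markers of other cell types moved with the arms in part. For endothelial cells 2 of 7 (KDR and ESAM) were measured, summing to 352.8 to 445.9 in TTP and 180.5 to 216.0 in EV libraries, and for embryonic kidney cells 1 of 5 (GATA2), at 220.5 to 326.5 in TTP and 116.0 to 174.0 in EV libraries. Immune markers (3 of 8) summed to 58.9 to 100.2 in TTP and 79.0 to 181.1 in EV libraries, and fibroblast markers (4 of 6) to 410.0 to 679.3 in TTP and 349.4 to 661.2 in EV libraries. Their part in the results below was not tested.

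In the TTP clones, the mRNAs of tissue factor, the urokinase receptor and urokinase were lower than in the EV clones, to 0.459 of the EV level for F3 and 0.653 for PLAU. The inhibitors SERPINE2 and TFPI were higher, and PLAT differed between the TTP clones. Inhibitors outside the 6 genes moved in both directions (below). These changes were tested with limma on log2(normalized count + 1) over all genes, and adjusted p-values are Benjamini-Hochberg values over the 14857 genes, with a threshold of 0.05. The 6 genes all passed in TTP versus EV, where 70.0% of all genes passed, so passing alone sets them little apart. Of the 6, 2 were higher (35.4% of all genes) and 4 lower (34.6%). A gene was called concordant when each of the 4 comparisons of 1 TTP clone with 1 EV clone passed with the same sign, which 38.5% of all genes did, 19.0% higher and 19.5% lower. Of the 6 genes 5 were concordant, SERPINE2 and TFPI higher and PLAU, PLAUR and F3 lower, with the limit for TFPI given beside its values. In the single comparisons 6 genes passed in TTP_E11 versus EV_A (63.1% of all genes), 6 in TTP_E11 versus EV_B (59.4%), 5 in TTP_H3 versus EV_A (64.0%) and 6 in TTP_H3 versus EV_B (59.5%). Against the mean of both EV clones, 6 passed in TTP_E11 (64.6%) and 5 in TTP_H3 (64.7%), PLAT being the exception. The libraries of the arms did not overlap for 4 of them, against 31.8% of all genes: SERPINE2 was above in TTP (15.6%), and PLAU, PLAUR and F3 were below (16.2%). A fall of at least 1 on the log2 scale was shown by 1 of the 6, F3, and by 1.87% of all genes. Fewer reads may come from less of the mRNA in each cell or from fewer cells with it, and these cannot be told apart in bulk RNA.

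**Figure D1:**
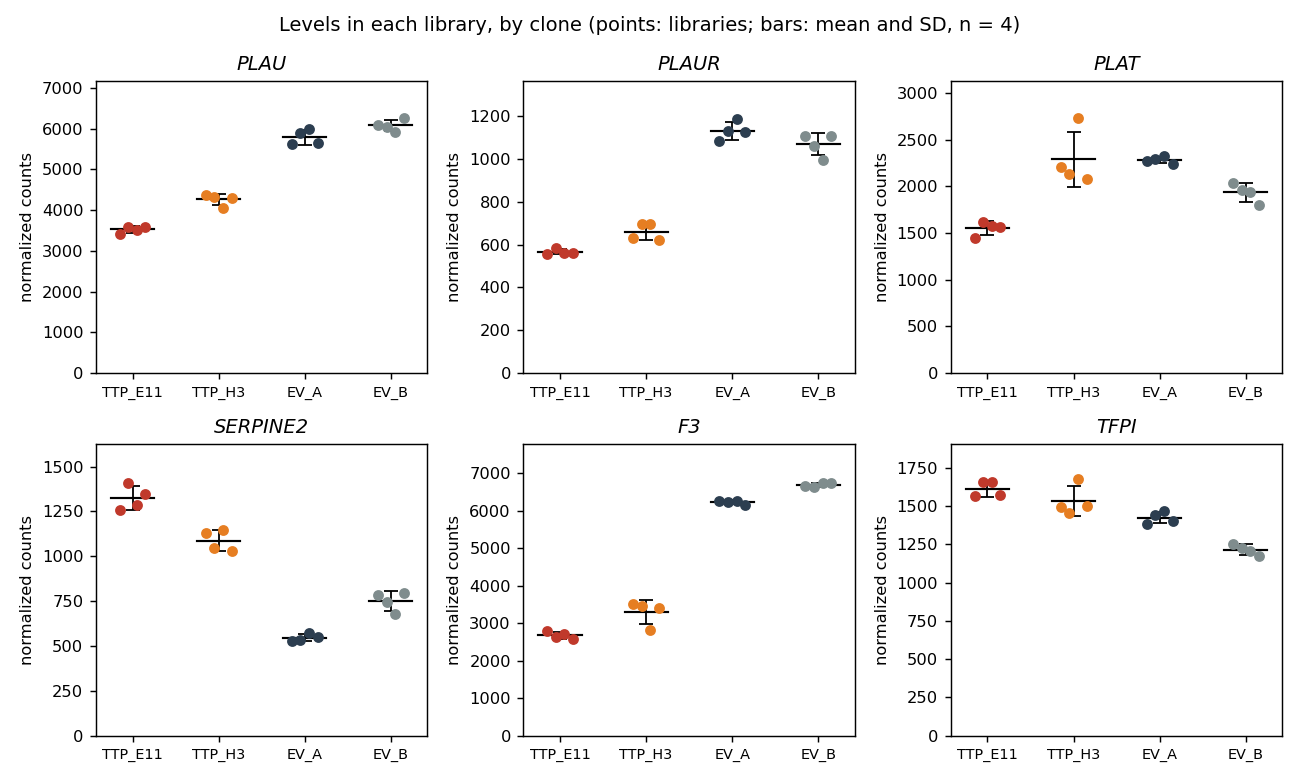
Normalized counts of the 6 genes (vertical axes, each starting at 0) in every library, by clone, with TTP_E11 and TTP_H3 left of EV_A and EV_B. Points are libraries and bars are mean and SD (n = 4 per clone). For F3 the 8 TTP libraries lie between 2583 and 3510.4 and the 8 EV libraries between 6152 and 6747, while the arms overlap for PLAT and TFPI.

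Urokinase itself was lower in both TTP clones. PLAU (chromosome 10, 73909177 to 73917497, plus strand, GRCh38) stood at 3407, 3577, 3519 and 3595 normalized counts in TTP_E11 and 4375, 4315, 4064 and 4293 in TTP_H3, against 5626, 5903, 5983 and 5648 in EV_A and 6104, 6039.8, 5916 and 6261 in EV_B. The highest TTP library was below the lowest EV library, and every TTP_H3 library was above every TTP_E11 library. The log2 change in TTP versus EV was -0.61 ± 0.023 (SE, adjusted p = 4.58e-21), and 6.79% of all genes had a lower value. The 4 single comparisons ran between -0.79 and -0.44. The EV clones differed by 0.07 (EV_B minus EV_A, adjusted p = 0.0934), which missed the threshold. The exons of PLAU share 916 bases with C10orf55 on the opposite strand, and whether the library kit kept strand is not stated in the sources used here. C10orf55 averaged 39.4 ± 10.4 normalized counts in TTP_E11, 48.9 ± 14.4 in TTP_H3, 62.0 ± 12.6 in EV_A and 56.3 ± 8.2 in EV_B (SD, n = 4 each), far below PLAU.

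Its receptor moved further in the same direction. PLAUR (chromosome 19, 43646095 to 43670547, minus strand) had 558, 585, 561 and 560.4 normalized counts in TTP_E11 and 631, 695, 695 and 622 in TTP_H3, against 1083, 1132, 1186 and 1126 in EV_A and 1106, 1062, 997 and 1109 in EV_B. The TTP libraries all lay below the EV libraries, with the highest at 695 and the lowest EV library at 997. The log2 change was -0.85 ± 0.036 (SE, adjusted p = 7.65e-20), with single comparisons between -0.998 and -0.69, and 3.00% of all genes had a lower value. The EV clones differed by -0.08 (EV_B minus EV_A, adjusted p = 0.205), which missed the threshold.

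The tissue-type activator did not follow urokinase in both clones. PLAT (chromosome 8, 42175233 to 42207724, minus strand) had 1444, 1619, 1575 and 1569 normalized counts in TTP_E11 and 2206, 2136, 2730.25 and 2083 in TTP_H3, against 2267, 2295, 2329 and 2244 in EV_A and 2038, 1966, 1935 and 1799.8 in EV_B. The TTP_E11 libraries were below all EV libraries, while the TTP_H3 libraries overlapped those of EV_A and lay above those of EV_B. TTP_E11 versus EV gave a log2 change of -0.44 (adjusted p = 7.77e-07), and TTP_H3 versus EV gave 0.11 (adjusted p = 0.0756). The single comparisons of TTP_H3 had opposite signs, -0.01 against EV_A (adjusted p = 0.948) and 0.24 against EV_B (adjusted p = 0.00352).

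The mean over both TTP clones, -0.16 ± 0.045 on the log2 scale (SE, adjusted p = 0.00349), therefore describes neither clone. It missed the threshold with libraries scaled by total reads (-0.08, adjusted p = 0.108), with a 2-group model (-0.16, adjusted p = 0.249), with reads summed per clone in edgeR (-0.13, adjusted p = 0.670) and with EV_B alone as control (-0.04, adjusted p = 0.535). In the authors' deposited table PLAT had a log2 fold change of -0.14 with an adjusted p of 0.274, and was the single gene of the 6 that missed 0.05 there. PLAT also differed between the EV clones, by -0.24 (EV_B minus EV_A, adjusted p = 0.00558). The difference of TTP_H3 from EV was 0.15 (adjusted p = 0.0469) without TTP_H3 replicate 2 and 0.16 (adjusted p = 0.0184) without TTP_H3 replicate 4, both past the threshold. Both of these runs kept TTP_H3 replicate 3, whose 2730.25 normalized counts stood above the 2083 to 2206 of the other libraries of that clone. Without replicate 3, TTP_H3 exceeded TTP_E11 by 0.47, against 0.55 with all libraries.

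Protease nexin-1 was the urokinase inhibitor among the 6 genes, and it was higher in both TTP clones. SERPINE2 (chromosome 2, 223975112 to 224039319, minus strand) had 1259, 1409, 1285 and 1348 normalized counts in TTP_E11 and 1130.4, 1045, 1145 and 1027 in TTP_H3, against 527, 534, 569.8 and 549 in EV_A and 783, 748, 675 and 796 in EV_B. All TTP libraries were above all EV libraries, and TTP_E11 was above TTP_H3. The log2 change was 0.91 ± 0.038 (SE, adjusted p = 6.11e-20), and 94.7% of all genes had a lower value. The single comparisons ran from 0.53 to 1.28, and the EV clones themselves differed by 0.46 (EV_B minus EV_A, adjusted p = 5.99e-08). That difference between EV clones was smaller than each single comparison of a TTP clone with an EV clone.

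Tissue factor showed the largest change of the 6 genes. F3 (chromosome 1, 94529225 to 94541800, minus strand) had 2789.7, 2631, 2701 and 2583 normalized counts in TTP_E11 and 3510.4, 3455, 2814 and 3403 in TTP_H3, against 6263, 6246, 6259 and 6152 in EV_A and 6651, 6627, 6734 and 6747 in EV_B. The arms were wide apart, and replicate 3 of TTP_H3 stood near TTP_E11 and away from the other libraries of its clone. The log2 change was -1.12 ± 0.033 (SE, adjusted p = 1.62e-20), and 1.31% of all genes had a lower value. The single comparisons ran from -1.32 to -0.92. EV_B differed from EV_A by 0.10 (adjusted p = 0.0876), which passed the threshold without TTP_H3 replicate 3 (0.10, adjusted p = 0.00393), since all libraries share 1 estimate of the spread.

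The inhibitor of tissue factor changed by less and in the other direction. TFPI (chromosome 2, 187464230 to 187565760, minus strand) had 1565, 1661, 1659 and 1572 normalized counts in TTP_E11 and 1493, 1458, 1679 and 1501 in TTP_H3, against 1387, 1442, 1469 and 1405 in EV_A and 1256, 1229, 1205 and 1172 in EV_B. The arms overlapped by a little: the lowest TTP library was at 1458 and the highest EV library at 1469. The log2 change was 0.26 ± 0.031 (SE, adjusted p = 7.42e-09), a size close to the difference of -0.23 between the EV clones (EV_B minus EV_A, adjusted p = 8.94e-05). TTP_H3 exceeded EV_A by 0.10 (adjusted p = 0.0396). This single comparison missed the threshold without TTP_H3 replicate 3 (0.06, adjusted p = 0.226), without EV_A replicate 1 (0.09, adjusted p = 0.103), without EV_A replicate 2 (0.11, adjusted p = 0.0537) and without EV_A replicate 4 (0.10, adjusted p = 0.0864), so TFPI was then not concordant. The exons of TFPI share 118 bases with AC007319.1 on the opposite strand, a gene that averaged 11.4 in TTP_E11, 17.5 in TTP_H3, 6.7 in EV_A and 7.8 in EV_B. With reads summed per clone in edgeR the change of TFPI in TTP versus EV was 0.26 with an adjusted p of 0.0928.

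**Figure D2:**
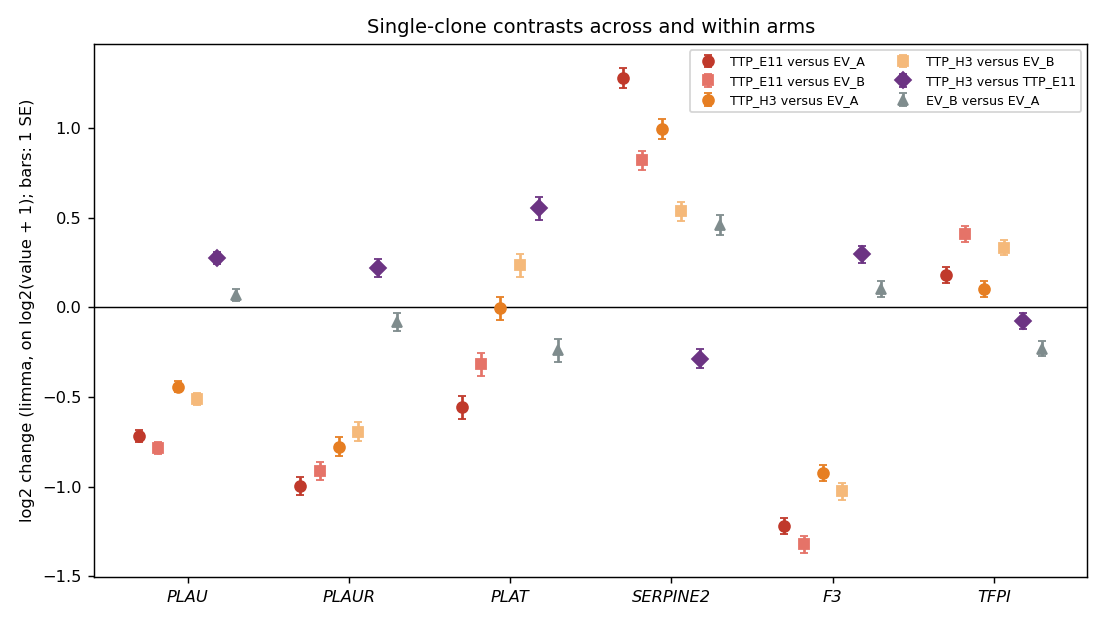
Log2 changes (vertical axis) of the 6 genes in each single comparison of a TTP clone with an EV clone and between the clones of an arm, from 1 limma fit of all libraries; points are estimates and bars are 1 SE. PLAU, PLAUR and F3 lie below 0 in all 4 single comparisons, SERPINE2 and TFPI lie above 0, and PLAT lies on both sides.

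**Figure D3:**
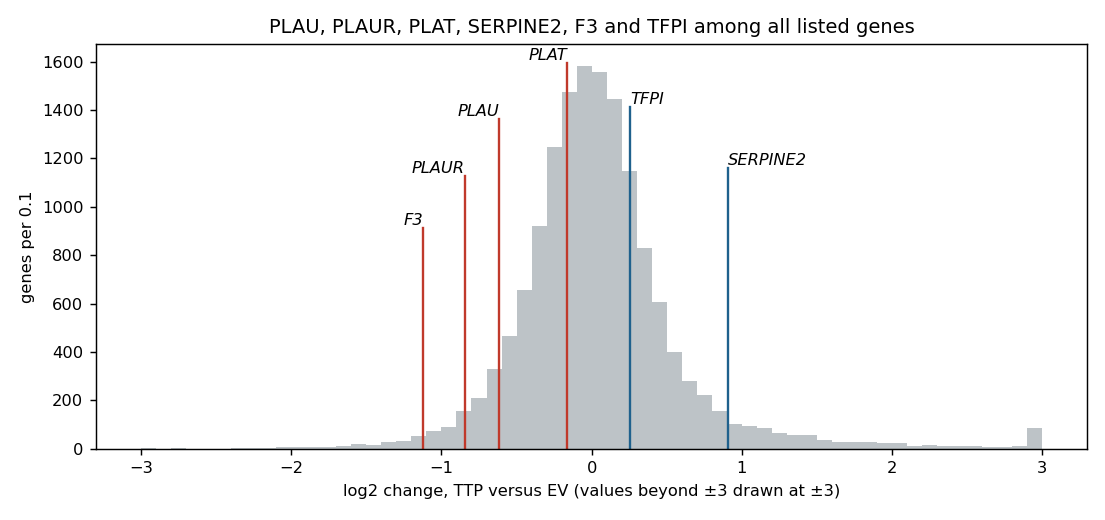
Histogram of the log2 change in TTP versus EV (horizontal axis) over all 14857 genes (vertical axis, genes per bin), with the 6 genes marked by lines whose height has no meaning. F3 and PLAUR lie among the 1.31% and 3.00% of genes with the lowest changes, and SERPINE2 has 94.7% of genes below it.

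The TTP clones also differed from each other. In TTP_H3 versus TTP_E11, 5 of the 6 genes passed the threshold, against 11.7% of all genes. PLAU (0.27, adjusted p = 4.18e-07), PLAUR (0.22, adjusted p = 0.00343), PLAT (0.55, adjusted p = 7.59e-06) and F3 (0.30, adjusted p = 0.000101) were higher in TTP_H3, where 6.35% of all genes were higher. SERPINE2 was lower by log2 -0.29 (adjusted p = 0.000453), where 5.32% of all genes were lower. So for PLAU, PLAUR, F3 and SERPINE2 the clone TTP_H3 lay nearer to the EV clones than TTP_E11 did. ZFP36 did not run in that order: it averaged 14365 ± 811 normalized counts in TTP_H3 and 10482 ± 337 in TTP_E11 (SD, n = 4 each). TFPI differed by -0.08 (adjusted p = 0.282), which passed the threshold without TTP_H3 replicate 3 (-0.12, adjusted p = 0.0429). Between the EV clones 3 of the 6 genes passed, PLAT, SERPINE2 and TFPI, against 36.8% of all genes.

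Levels of different genes were compared per kilobase of the principal transcript. In the TTP clones urokinase led, with PLAU at 1518 ± 36.6 normalized counts per kilobase in TTP_E11 and 1836 ± 58.8 in TTP_H3, and F3 followed at 1170.1 ± 39.2 in TTP_E11 and 1441 ± 142 in TTP_H3 (mean ± SD of 4 libraries). In the EV clones tissue factor led, with F3 at 2724 ± 23.1 in EV_A and 2925 ± 26.0 in EV_B, ahead of PLAU at 2495 ± 77.4 in EV_A and 2619.6 ± 61.7 in EV_B. This change of order was also seen per kilobase of all annotated exons. How reads on the 916 bases that PLAU shares with C10orf55 were counted is not stated. Reads lost there would lower PLAU under both lengths, so its order against F3 is not secure. PLAU and F3 both stood above the other 4 genes in every clone. Some pairs of those 4 lay close together. In TTP_E11 SERPINE2 (604 ± 30.5) and PLAT (574 ± 27.8) differed by about 1 SD, and in TTP_H3 PLAUR (427 ± 25.8) and TFPI (395 ± 25.5) likewise. In EV_B PLAT (715 ± 36.9) and PLAUR (690.2 ± 33.7) differed by less than 1 SD. Other pairs lay far apart: in EV_A the 4 ran from 248 ± 8.7 for SERPINE2 to 844 ± 13.6 for PLAT. SERPINE2 stood above PLAUR in both TTP clones and below it in both EV clones, where PLAUR was at 731 ± 27.4 in EV_A and SERPINE2 at 248 ± 8.7 in EV_A and 342 ± 24.7 in EV_B. Per kilobase of all annotated exons SERPINE2 was below PLAUR in TTP_H3 as well, at 122 against 148, so the order of these 4 depends on the length used.

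Ratios within a library need no scaling between libraries, and 4 were computed per kilobase. The ratio of F3 to its inhibitor TFPI was 2.82 ± 0.15 in TTP_E11 and 3.68 ± 0.56 in TTP_H3, against 7.43 ± 0.18 in EV_A and 9.36 ± 0.35 in EV_B (SD, n = 4 each). Over the arms this was 3.25 ± 0.60 in TTP and 8.39 ± 1.06 in EV libraries, a log2 difference of -1.38. The ratio of PLAU to its inhibitor SERPINE2 fell more, to 3.12 ± 0.67 in TTP libraries against 8.87 ± 1.31 in EV libraries (log2 difference -1.52). In this ratio the EV clones lay in the other order, at 7.68 ± 0.42 in EV_B and 10.1 ± 0.31 in EV_A. These are ratios of mRNA reads and not of active proteins.

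Urokinase changed by less than its receptor. The ratio of PLAU to PLAUR was 4.24 ± 0.26 in TTP and 3.61 ± 0.22 in EV libraries, a log2 difference of 0.23, and the arms overlapped (lowest TTP library 3.90, highest EV library 3.96). The ratio of PLAU to PLAT, the other activator, was 2.43 ± 0.32 in TTP and 3.31 ± 0.42 in EV libraries, a log2 difference of -0.45. Exact two-sided permutation tests of 8 TTP against 8 EV libraries gave p = 0.0001554 for 3 of the ratios, the smallest value that the 12870 splits allow, and p = 0.0003108 for PLAU to PLAUR. Adjusted over the 4 comparisons, these exact permutation p-values were 0.0002072 and 0.0003108. The libraries of a clone are not independent of each other, so these tests do not speak of the spread between clones.

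**Figure D4:**
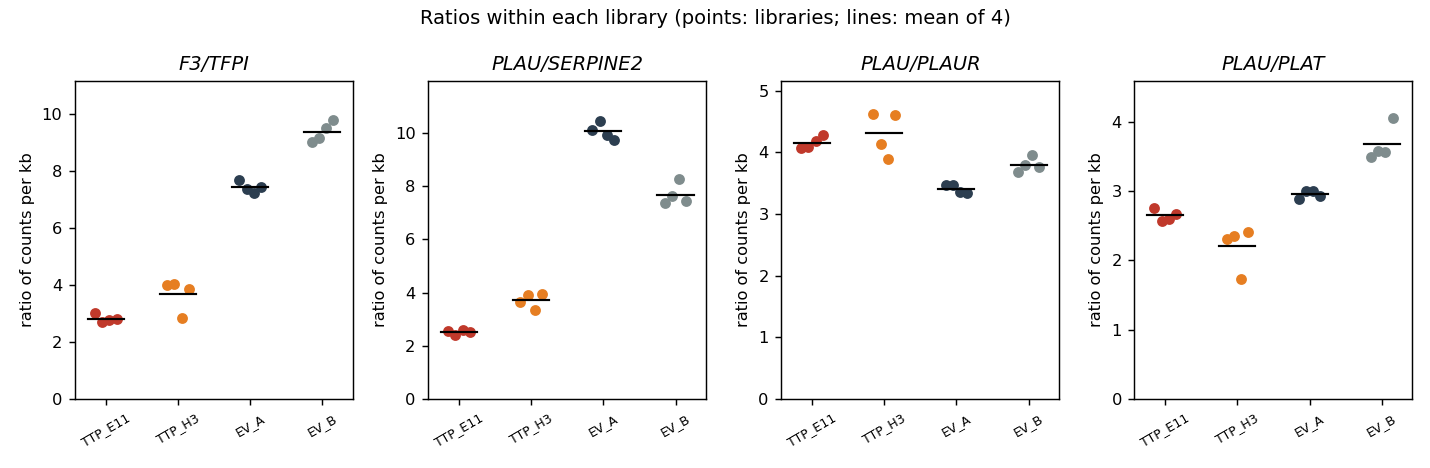
The 4 ratios per kilobase (vertical axes starting at 0) in every library, by clone, with the TTP clones left of the EV clones. Points are libraries and lines are means of 4 libraries. F3 to TFPI and PLAU to SERPINE2 separate the arms, at 3.25 and 3.12 on average in TTP libraries against 8.39 and 8.87 in EV libraries.

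The genes with the most similar pattern to each of the 6 were taken by Pearson's r of log2(normalized count + 1) over the 16 libraries, among genes with a mean of at least 100 normalized counts. For F3 these included SOGA1 (r = 0.989) and TGFA (0.989), and for PLAU FAM83D (0.989) and TPX2 (0.988). For PLAUR they were CHST11 (0.994), LIF (0.992) and DPP9 (0.989). For SERPINE2 they were SCARA3 (0.987), SPANXB1 (0.982) and LIMCH1 (0.982), and for TFPI KCNAB2 (0.971), RTN4R (0.951) and PICK1 (0.950). The closest genes to PLAT, whose level split the TTP clones, reached less, with PGK1 at 0.890, GMPR at 0.877 and SQOR at 0.870. The points are libraries of 4 clones in 2 arms, so a high r mostly says that the clones stand in the same order.

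Partners of the urokinase system outside the 6 genes moved in both directions. Of 26 listed partners of plasminogen activation (inhibitors, plasminogen receptors, clearance receptors and other activators), 19 were measured, 6 higher, 7 lower and 6 not past the threshold, with a median log2 change of -0.07 against 0.00 over all genes. Over all genes 35.4% were higher and 34.6% lower, so these counts are near the background. Of the 19, 2 were concordant higher and 5 concordant lower, against 19.0% and 19.5% of all genes. S100A10, which forms a plasminogen receptor with annexin A2, was lower at 3333 in TTP and 6295 normalized counts in EV libraries on average (log2 -0.89, adjusted p = 3.06e-14). The EV clones differed for S100A10 by -0.53 (EV_B minus EV_A, adjusted p = 3.22e-07), and its smallest single comparison was -0.59. SERPINF2, the antiplasmin, was higher at a low level, 36.1 in TTP and 17.5 in EV libraries (1.03, adjusted p = 6.01e-07).

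The plasminogen activator inhibitor PAI-2 was higher in TTP versus EV. Its gene SERPINB2 had a median of 15.02 normalized counts (7.8 to 91.8) in TTP and of 3.7 (1.2 to 6.6) in EV libraries, with a log2 change of 2.09 (adjusted p = 4.07e-07). Its highest value came from replicate 3 of TTP_H3, and it was concordant neither with edgeR or DESeq2 on the reads nor without that library and EV_B replicate 4 (1.76, adjusted p = 1.09e-06 for the arms). No listed gene had a mean under 9.68 normalized counts, and SERPINB2 met this only through its TTP libraries. The direction of SERPINB2 was thus largely fixed by its being listed.

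Of 17 listed membrane and matrix partners of uPAR, 13 were measured, 3 higher, 8 lower and 2 not past the threshold, with a median log2 change of -0.27. Over all genes 35.4% were higher and 34.6% lower. Of the 13, 2 were concordant higher and 4 concordant lower, against 19.0% and 19.5% of all genes. The integrin subunits ITGA3 and ITGB1 were lower, at 28583 in TTP and 46577 in EV libraries for ITGA3 (-0.70, adjusted p = 1.1e-20) and 14335 in TTP and 22724 in EV libraries for ITGB1 (-0.67, adjusted p = 1.27e-16). CAV1, the caveolar coat protein and also 1 of the cell line markers above, was lower (-0.77, adjusted p = 1.24e-14), and differed between the EV clones by -0.34 (EV_B minus EV_A, adjusted p = 9.72e-06). SRPX2, a secreted ligand of uPAR, was higher at a low level, with 57.5 in TTP and 21.5 in EV libraries (1.44, adjusted p = 1.49e-08). Between the EV clones (EV_B minus EV_A) SRPX2 differed by 0.65 (adjusted p = 0.0397) and ITGA3 by -0.17 (adjusted p = 0.000199).

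Of 32 listed genes of the tissue factor pathway and coagulation, 15 were measured, 3 higher, 11 lower and 1 not past the threshold, with a median log2 change of -0.30 against 0.00 over all genes. The share of all genes that were higher was 35.4%, and 34.6% were lower. Of the 15, 3 were concordant higher and 8 concordant lower, against 19.0% and 19.5% of all genes. The 3 higher genes were F2RL2, PROS1 and PROCR. PROS1 (protein S) and PROCR (the endothelial protein C receptor) belong to the protein C anticoagulant system. Thrombomodulin (THBD), of the same system, was concordant lower, at 273 in TTP and 455 in EV libraries (-0.69, adjusted p = 1.65e-11). THBD also differed between the EV clones, by -0.70 (EV_B minus EV_A, adjusted p = 2.45e-07). TFPI2, a relative of TFPI, was concordant lower, at 817 in TTP and 945 in EV libraries (-0.21, adjusted p = 2.01e-05). PROS1 averaged 775 in TTP and 379 normalized counts in EV libraries (1.02, adjusted p = 8.73e-19), and PROCR 579.8 in TTP and 331 in EV libraries (0.81, adjusted p = 1.4e-15). Between the EV clones PROCR differed by 0.28 (EV_B minus EV_A, adjusted p = 0.00234). F2RL2, a receptor cut by thrombin, ranged from 30.7 to 68.2 in TTP and from 0 to 6.6 in EV libraries (3.87, adjusted p = 2.04e-11). For F2RL2 the EV clones differed by 1.48 (EV_B minus EV_A, adjusted p = 0.0102). No listed gene had a mean under 9.68 normalized counts, and F2RL2 met this only through its TTP libraries. The direction of F2RL2 was thus largely fixed by its being listed. ANO6, which moves the phospholipid that clotting complexes bind to the outer membrane leaflet, was lower at 1151 in TTP and 2106 in EV libraries (-0.86, adjusted p = 1.48e-21). The EV clones differed for ANO6 by -0.34 (EV_B minus EV_A, adjusted p = 4.54e-07).

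Of 15 listed relatives of uPAR with the LY6 fold, 7 were measured, 4 higher, 2 lower and 1 not past the threshold, with a median log2 change of 0.19. Of the 7, 2 were concordant, both higher. Over all genes 70.0% passed the threshold and 19.0% were concordant higher. CD59, a lipid-anchored inhibitor of complement, averaged 8274 in TTP and 5921 in EV libraries (0.49, adjusted p = 6.15e-18). Between the EV clones CD59 differed by -0.20 (EV_B minus EV_A, adjusted p = 3.49e-05). LYPD3, a close relative of uPAR, was higher at a low level, with 15.8 in TTP and 4.0 in EV libraries (1.82, adjusted p = 6.05e-07). No listed gene had a mean under 9.68 normalized counts, and LYPD3 met this only through its TTP libraries. The direction of LYPD3 was thus largely fixed by its being listed. PINLYP (-0.78, adjusted p = 0.00241) and LYPD6B (0.73, adjusted p = 0.00184) passed in TTP versus EV without being concordant. With a mean of at least 50 normalized counts required, fewer genes were tested, and 2 of these relatives were higher and 0 lower.

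**Figure D5:**
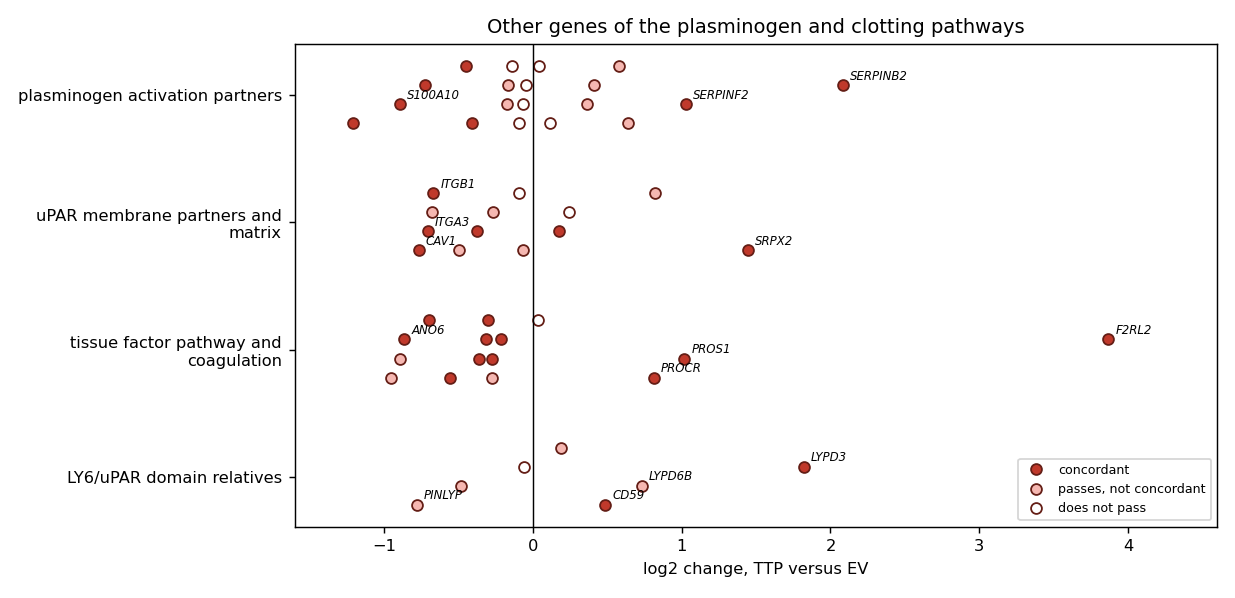
Log2 change in TTP versus EV (horizontal axis) of every measured gene of the 4 lists, 1 band per list, from limma. Filled points are concordant genes, pale points pass without being concordant, and open points do not pass. The coagulation list has 11 of 15 genes lower, with F2RL2 far to the right at 3.87.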

How the data were processed

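RNA of 16 MDA-MB-231 cultures was sequenced, and the library name in each description set the group. Build GRCh38, Subread 1.5.2 with featureCounts, STAR 2.5.2b, Trimmomatic 0.36 and DESeq2 are in the submitters' processing notes, without saying what each did. The annotation behind the table is not stated in the sources read here. The authors deposited normalized signal values, 1 column a library, which behave as reads over a size factor. Per the file headers, other columns give their own log2 fold changes with each p-value and its adjusted form. No listed gene had a mean under 9.68 normalized counts, and rarer genes were not analysed here. In every library 100% of values were whole multiples of 1 step, within 0.001, so whole reads were taken back from them. The step of TTP_H3 replicates 1 and 3 was 1.009 and 0.9975, so near 1 that this is a weaker check there.

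One limma fit (version 3.58.1, R 4.3.3, robust, trend) took log2(value + 1) of all libraries in 4 clone groups, unfiltered. The added 1 makes fold changes of low genes too small. Scripts were tested on simulated data. The fit was repeated with edgeR (4.0.16) or DESeq2 (1.42.0) on whole reads, with other pseudocounts, scalings or filters, as 2 groups, on clone sums, against a single EV clone, with a replicate block, and without each library in turn. GENCODE 29 (GRCh38) gave positions, transcripts and UTRs and need not be the annotation behind the table. The members and lists were chosen with earlier results of these data known. Named genes were the 6 genes, ZFP36 and, from each list, at most 4 with the largest change, concordant ones first, plus the 3 most similar to each of the 6. Some genes that this rule names are left out of the text, and THBD, TFPI2 and the cell type markers were named outside it.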

Additional observations from a re-analysis of the deposited data

Results flagged for a closer look

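In 3 of 24 groups of 4 libraries, 1 library was flagged as apart from the others of its clone, where chance flags about 1 group in 20. The flag is Dixon's ratio, the gap to the next library over the range of the group, above 0.829. A small gap can thus be flagged where the range is small. PLAT and TFPI in replicate 3 of TTP_H3 were not flagged, at 2730.25 against 2083 to 2206 and at 1679 against 1458 to 1501 in the other libraries. F3 in replicate 3 of TTP_H3 was at 2814 normalized counts, against 3403 to 3510.4 in the other 3 libraries. Its change in TTP versus EV was -1.09 without that library. F3 in replicate 4 of EV_A was at 6152, against 6246 to 6263 in the others. PLAUR in replicate 2 of TTP_E11 was at 585, against 558 to 561 in the others.

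The effect against the same EV libraries differed between the TTP clones for 5 genes, by the limma test of TTP_H3 versus TTP_E11. The log2 differences were 0.27 for PLAU, 0.22 for PLAUR, 0.55 for PLAT, 0.30 for F3 and -0.29 for SERPINE2. Every TTP_H3 library was above every TTP_E11 library for the first 4 of these and below for SERPINE2. The cause was not tested.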

How the results depend on the processing

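F3, PLAU, PLAUR and SERPINE2 kept direction and threshold in TTP versus EV under every alternative run. Their log2 changes ran from -1.17 to -1.04, -0.65 to -0.53, -0.89 to -0.77 and 0.68 to 1.14, in that order of genes. PLAT missed the threshold with total reads per library (-0.081), a 2-group model (-0.16), reads summed per clone (-0.13) and EV_B alone as control (-0.041). TFPI missed it with reads summed per clone (0.26), where 1 of the 6 genes was called higher and 4375 genes were called in all, against 10405; that test has 2 values per arm. Leaving out single libraries gave -0.21 to -0.14 for PLAT and 0.23 to 0.27 for TFPI, and 4 or 5 concordant genes. Scaling by total reads shifted the median of all genes by 0.08 and raised the higher share of calls to 61.4% (6450 higher, 4060 lower), against 50.6% (5261 higher, 5144 lower). With the replicate number as a block, 10354 genes were called and the calls of the 6 genes in TTP versus EV were the same, with PLAT at -0.16, while PLAT in TTP_H3 versus EV passed (0.11, adjusted p = 0.0455). No pairing by replicate number was seen: 24 correlations of same-numbered deviations ran from -0.100 to 0.137. The 72 correlations of different-numbered deviations ran from -0.144 to 0.169. Whether cultures were handled in pairs cannot be told from these values. Depth limits the low genes: SERPINB2, F2RL2 and LYPD3 had at most 6.6 normalized counts in an EV library. These genes reached the smallest listed mean, 9.68, only through their TTP libraries. With reads summed per clone, list counts were 3 higher and 4 lower for plasminogen activation, 1 and 4 for uPAR partners, 3 and 5 for coagulation, and 2 and 0 for uPAR relatives. With a mean of at least 50 normalized counts they were 3 and 7, 1 and 6, 2 and 9, and 2 and 0, for the lists in that order. Plasminogen partners were 3 higher with EV_A alone as control, and uPAR relatives 1 lower with EV_B alone.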

Other observations

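Within clones, deviations of a library from its clone mean were compared between genes as a description. PLAT and F3 deviated in opposite directions (r = -0.873 over 16 libraries, -0.438 without TTP_H3 replicate 3), and PLAT and TFPI in the same direction (0.902, and 0.746 without that library). F3 and TFPI gave -0.758, and -0.192 without it. PLAU and PLAUR gave 0.226, and 0.581 without it.

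Among the 4082 listed genes whose 3′ UTR held TATTTAT, 50.4% were lower and 26.4% higher in TTP versus EV, with a median log2 change of -0.11 and a median UTR of 2396 bases. Among the 8402 genes without it, 30.3% were lower and 44.1% higher, with a median of 0.06 and a median UTR of 724.5 bases. The groups differ in UTR length, and the part of length was not tested.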
